A study of Mus musculus with 6 samples.

Results

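The Platr genes are a set of mouse long noncoding RNA genes named in embryonic stem cells, in which their transcripts were abundant before differentiation and declined with it. Every gene of the expression table whose symbol was Platr followed by digits was taken, which gave 28 genes of the 55364 listed. Symbols decided which genes belong to the set, but the set itself was chosen with earlier results of these data known. *Platr16* was singled out among them with its change already known. The counts over the set and the values of *Platr16* are therefore given as a description. The comparison asked how the levels of these transcripts differed in morulae in which the transcription factor YY1 had been depleted.

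Long noncoding RNAs are transcribed like messenger RNAs but have no known protein product, and many are present at low levels in a narrow range of cell types. The pluripotent state is held by transcription factors such as OCT4, encoded by *Pou5f1*, NANOG and SOX2, and several noncoding transcripts are switched on with it. YY1 is a zinc-finger transcription factor that binds promoters and enhancers in most cells.

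Embryos of BDF1 × BDF1 crosses were cultured in KSOM medium, received a control siRNA or an siRNA against *Yy1* as zygotes, and were collected as morulae 64 h after insemination. Both groups were therefore injected, and they are called control KD and *Yy1* KD after their labels. Each group had 3 libraries, each made from 10 pooled morulae with a stranded kit for small amounts of total RNA. The labels do not say whether the pools came from separate fertilizations, so p-values measure the spread between libraries only. The values below are listed in the order of replicates 1, 2 and 3.

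*Yy1* itself had a mean of 95.3 ± 5.26 TPM (SD, n = 3) in control KD and 8.65 ± 0.298 TPM (SD, n = 3) in *Yy1* KD libraries, and its log2 fold change was -3.32 (limma adjusted p = 6.71e-05). TPM divides the read pairs of each gene by the length of its exons and sums to 1000000 in every library, so that levels can be compared between genes. Libraries held between 11793509 and 24417789 read pairs on genes. All 10 morula markers were present at 1 TPM or more, with summed levels of 1997 to 2295 TPM in control KD and 1655 to 1974 TPM in *Yy1* KD libraries. Of these 10, only *Tfap2c*, a transcription factor of the early trophoblast, was called, with means of 183 and 126 TPM (log2 fold change -0.54, limma adjusted p = 0.0174). That is 1 of 10, beside 6.11% called over all genes tested. None of 8 genes of cumulus and granulosa cells reached 1 TPM in 3 libraries, and *Has2*, *Ptx3*, *Tnfaip6* and *Fshr* were listed at 0 in all 6 libraries. Their summed level was 0.610 to 1.06 TPM in control KD and 0.782 to 2.42 TPM in *Yy1* KD libraries. *Inha* reached 1.78 TPM in *Yy1* KD replicate 3 and *Amh* 1.16 TPM in *Yy1* KD replicate 1. No other gene of that list reached 1 TPM in any library.

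The following stretches of sequence bear on the results below. The first is the promoter window of *Platr10*, the called member with its own exons (RefSeq, GRCm38.p6, chr3:75655682-75655981, minus strand, written in the direction of transcription). Its capitals mark ATGG, which is the core CCAT of the YY1 motif read on the other strand. The second is exon 3 of the transcript *Platr16-202* (GENCODE vM21, GRCm38, chr4:145449467-145449756, plus strand), which lies inside the last exon of *Gm13230* and in which the capitals mark a word that recurs along *Gm13230*. The last is the first 100 nt of the spliced transcript *Platr12-202*, which starts at position 63200708 of chromosome 1 on the plus strand of GRCm38. Its capitals mark the YY1 consensus.
Platr10 promoter: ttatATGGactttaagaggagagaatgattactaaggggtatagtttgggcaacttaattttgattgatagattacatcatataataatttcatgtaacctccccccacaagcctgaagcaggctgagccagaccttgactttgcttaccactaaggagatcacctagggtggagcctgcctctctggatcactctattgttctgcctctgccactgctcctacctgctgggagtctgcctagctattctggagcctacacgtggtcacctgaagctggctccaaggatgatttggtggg
Platr16-202 exon 3: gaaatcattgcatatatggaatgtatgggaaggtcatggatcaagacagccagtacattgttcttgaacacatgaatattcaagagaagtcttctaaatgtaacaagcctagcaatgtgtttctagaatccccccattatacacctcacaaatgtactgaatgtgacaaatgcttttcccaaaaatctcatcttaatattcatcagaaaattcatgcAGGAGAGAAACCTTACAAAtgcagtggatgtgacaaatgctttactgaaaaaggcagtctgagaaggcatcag
Platr12-202 first 100 nt: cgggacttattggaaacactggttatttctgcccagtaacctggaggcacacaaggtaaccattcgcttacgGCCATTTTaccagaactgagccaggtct

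Of the 28 Platr genes, 16 reached 1 TPM in 3 or more of the 6 libraries, and 10 did so in all 6. Another 6 reached 1 TPM in 1 or 2 libraries, and 6 did so in no library. *Platr7* and *Platr11* were listed at 0 in all 6 libraries. A single library held between 12 and 17 Platr genes at 1 TPM or more, with 12, 16 and 14 in the control KD and 15, 16 and 17 in the *Yy1* KD libraries. The mean level reached 1 TPM for 14 genes in control KD and for 16 in *Yy1* KD libraries.

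The level of these transcripts was dominated by a few members. The summed TPM of all 28 genes was 160, 147 and 169 in the control KD and 204, 200 and 201 in the *Yy1* KD libraries. *Platr31*, an antisense transcript of the *Tigar* locus, alone gave 34.7% to 43.5% of that sum in control KD and 32.2% to 34.2% in *Yy1* KD libraries. *Platr16* gave 5.67%, 3.89% and 8.48% of the sum in control KD and 21.1%, 19.2% and 17.2% in *Yy1* KD libraries. In control KD, 4 members had a mean of at least 10 TPM and 7 had at least 5 TPM.

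**Figure D1:**
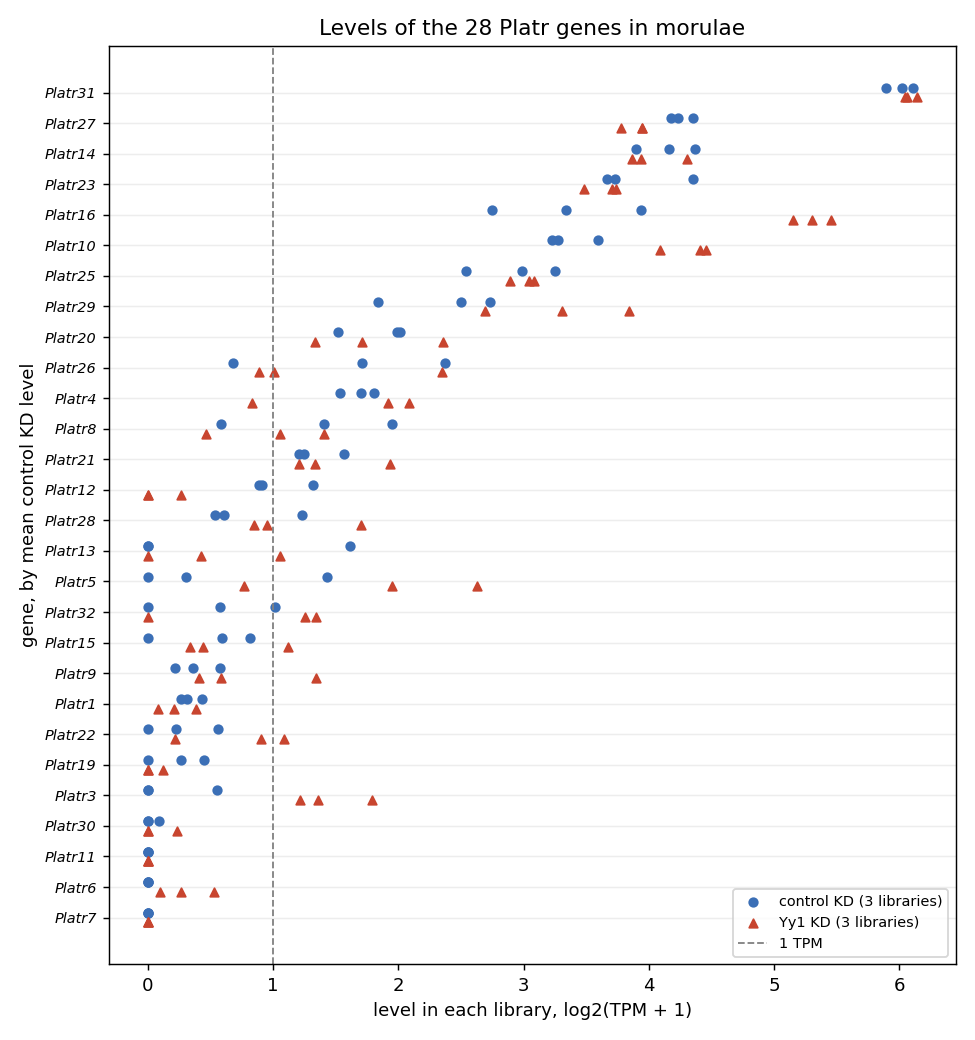
Levels of the 28 Platr genes in each of the 6 libraries, as log2(TPM + 1), ordered by the mean of the control KD libraries (circles, control KD; triangles, *Yy1* KD; dashed line, 1 TPM). *Platr31* lies above all other members in both groups, and the *Yy1* KD values of *Platr16*, *Platr10* and *Platr3* lie to the right of their control KD values.

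In control KD libraries, *Platr31* had the highest level, followed by *Platr27*, *Platr14*, *Platr23*, *Platr16* and *Platr10*. Among the 15 pairs of neighbours in that order over the 16 tested genes, only *Platr31* and *Platr27* had values that did not overlap, and the other 14 pairs overlapped. In *Yy1* KD libraries the order began with *Platr31*, *Platr16*, *Platr10*, *Platr14* and *Platr27*. There 4 neighbouring pairs did not overlap (*Platr31* and *Platr16*, *Platr16* and *Platr10*, *Platr27* and *Platr23*, *Platr25* and *Platr5*) and 11 did. By mean level *Platr16* thus held rank 5 in control KD and rank 2 in *Yy1* KD libraries, and *Platr10* held ranks 6 and 3.

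The 16 Platr genes at 1 TPM or more in at least 3 libraries entered a fit of 17353 genes with limma on log2(TPM + 1), with Benjamini-Hochberg adjusted p-values over all genes and a threshold of 0.05 for a call. Of these 16, *Platr16* and *Platr10* were called, both higher in *Yy1* KD, and 0 were called lower, by limma or by limma-voom, with 1 lower at an unadjusted p under 0.05. That is 12.5% of the members tested, beside 6.11% called over all 17353 genes in either direction and 1.92% called higher. This share includes *Platr16*, which was singled out with its change known, so it does not show that the members stand out. Among the other 15 members tested, only *Platr10* was called. Among 1851 other long noncoding RNA genes tested, 4.05% were called. An unadjusted p under 0.05 was found for 5 members, which were *Platr16*, *Platr10*, *Platr3*, *Platr27* and *Platr29*. The share of all genes under that threshold is not given here, so this count does not show whether the members stand out.

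The members did not share a direction. The log2 fold change was positive for 9 and negative for 7 of the 16, and its median was 0.08, beside -0.03 over all genes tested and 0.00 over the other long noncoding RNA genes. The median size of the log2 fold change regardless of sign was 0.30 for the members and 0.26 over all genes. Values of the control KD and *Yy1* KD libraries did not overlap for 4 of the 16 members (25.0%), which were *Platr16*, *Platr10* and *Platr3* with higher and *Platr27* with lower *Yy1* KD values, beside 30.1% of all genes tested. *Platr3* entered the fit through its *Yy1* KD libraries alone, so these counts describe the genes tested and not all 28.

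**Figure D2:**
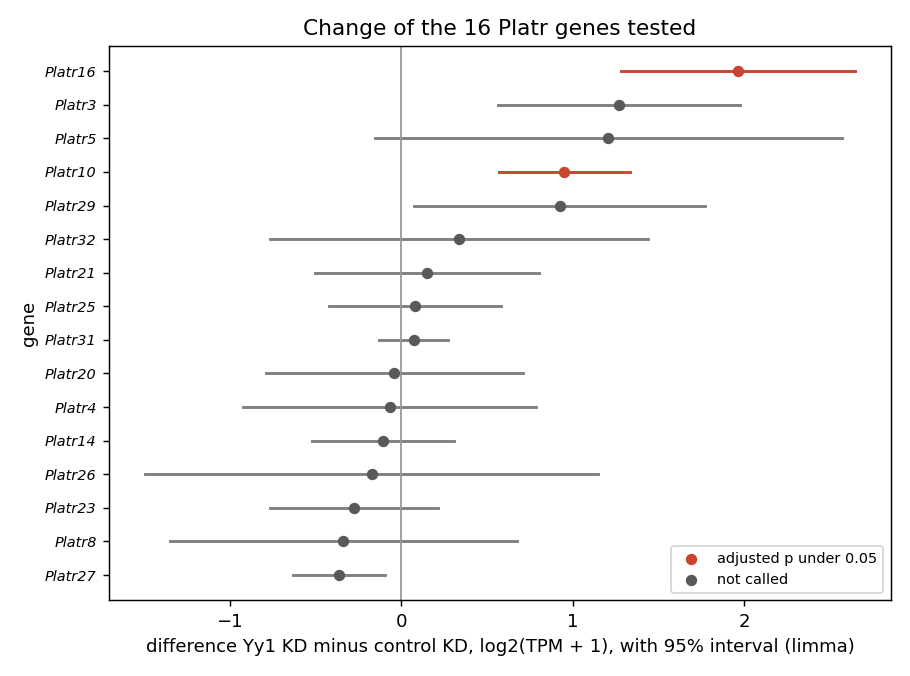
Difference between *Yy1* KD and control KD on the log2(TPM + 1) scale for the 16 Platr genes tested, with the 95% interval of limma (red, adjusted p under 0.05; grey, not called). *Platr16* (1.96) and *Platr10* (0.95) were called, and the points of the others lie between -0.36 and 1.27.

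*Platr16* (ENSMUSG00000085101.7, GRCm38 chr4:145410245-145449756, plus strand, annotated as a processed transcript) had the highest log2 fold change of the members on the log2(TPM + 1) scale. By ratio of means, *Platr3* (11.4) and *Platr5* (4.54) stood above it, both from few read pairs and neither called. Control KD libraries held 9.10, 5.70 and 14.3 TPM of it, and *Yy1* KD libraries held 42.9, 38.4 and 34.6 TPM. Every *Yy1* KD value was higher than every control KD value. The group means were 9.71 ± 4.33 TPM (SD, n = 3) and 38.6 ± 4.17 TPM (SD, n = 3), a ratio of 3.98. On the log2(TPM + 1) scale, which understates changes of low genes, the log2 fold change was 1.96 (SE 0.29, 95% interval 1.28 to 2.64, limma adjusted p = 0.0178). Ordered by log2 fold change from the highest, *Platr16* was at rank 45 of the 17353 genes. Leaving out 1 library gave log2 fold changes of 1.67 to 2.26, and *Platr16* was called in 3 of these 6 fits. It was not called without control KD replicate 1 (limma adjusted p = 0.0649), without *Yy1* KD replicate 1 (limma adjusted p = 0.0561) or without *Yy1* KD replicate 2 (limma adjusted p = 0.0661).

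Compared with the rest, the log2 fold change of *Platr16* exceeded that of the next member, *Platr3*, by 0.69, that of *Platr10* by 1.01 and the median of the other 15 members tested, 0.07, by 1.89. The order turned with the handling of low values: with a pseudocount of 0.1, *Platr3* (3.35) and *Platr5* (2.57) lay above *Platr16* (2.07), and with limma-voom on recovered pairs they did so too (3.06 and 2.29 against 2.16), with only *Platr16* of these called. These differences are descriptions, because *Platr16* was chosen for its change.

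**Figure D3:**
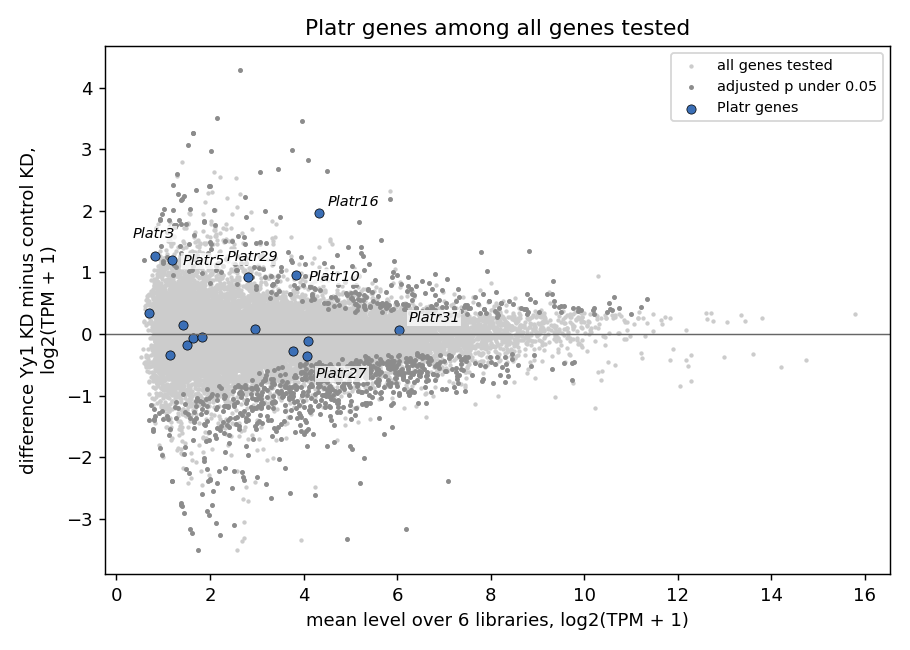
Difference between *Yy1* KD and control KD against the mean level over 6 libraries, both on the log2(TPM + 1) scale, for the 17353 genes tested (light grey), those called (dark grey) and the 16 Platr genes (blue). *Platr16* lies among the higher points at its level, while most members lie near 0 within the cloud of genes that were not called.

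*Platr16* shares sequence with *Gm13230*, a transcribed unprocessed pseudogene on the same strand (ENSMUSG00000082082.1, chr4:145446740-145450888). The exons of *Platr16* cover 665 nt in 4 blocks of 182, 94, 99 and 290 nt, and the last block, 43.6% of its length, lies wholly within *Gm13230*. Transcript *Platr16-202* (545 nt) ends in that block, and *Platr16-201* (375 nt) does not reach it. The word AGGAGAGAAACCTTACAAA, marked in exon 3 above, occurs 9 times in the 1575 nt *Gm13230* transcript and once in *Platr16-202*. In the annotation it was found in transcripts of 59 of 55341 genes, 47 of them named Zfp or Gm, and it encodes the type of linker that joins neighbouring zinc fingers in KRAB zinc-finger proteins. Of the 100-nt windows of *Platr16*, 33.9% occurred unchanged in another gene's transcripts, and *Gm13230* was the only such gene.

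The levels of both genes moved together. *Gm13230* was at 8.93, 8.23 and 15.1 TPM in the control KD and at 58.9, 54.0 and 40.4 TPM in the *Yy1* KD libraries. Its groups did not overlap either, and the log2 fold change was 2.18 (SE 0.24, limma adjusted p = 0.0114), and it was called whichever of the 6 libraries was left out. Because pairs on several genes were divided among them, *Platr16* was credited with 31.33, 39.17 and 71 pairs in control KD and 220.92, 140.33 and 113.92 pairs in *Yy1* KD libraries, in parts of a pair in 5 of 6 libraries. *Gm13230* was credited with 2.33 to 3.42 times as many pairs in each library. The summed pairs of both genes were whole only in control KD replicate 2 (173) and came out in parts elsewhere, as at 104.16 in control KD replicate 1. Whether a further gene shared these pairs was not determined. Taken as 1 gene of 1950 nt, a choice made after the values were seen, the locus was at 10.3, 8.59 and 17.1 TPM in control KD and at 62.2, 56.7 and 44.5 TPM in *Yy1* KD libraries, with a log2 fold change of 2.13 (limma adjusted p = 0.0122). How much of the *Platr16* change came from pairs in the shared block was not tested.

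The other genes around *Platr16* were not called. Within 300 kb, 23 genes were listed and 10 others than these 2 were tested, with log2 fold changes of -0.67 to 0.24, and limma called 0 of the 10, with 0 at an unadjusted p under 0.05 and 0 called by limma-voom, beside 6.11% called over all genes, a share at which few of 10 genes would be called. The nearest protein-coding genes were *Zfp990*, a zinc-finger gene 61.0 kb away, with a log2 fold change of 0.14 (limma adjusted p = 0.649), and *Tnfrsf8*, a receptor gene 95.1 kb away, with -0.04 (limma adjusted p = 0.954).

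**Figure D4:**
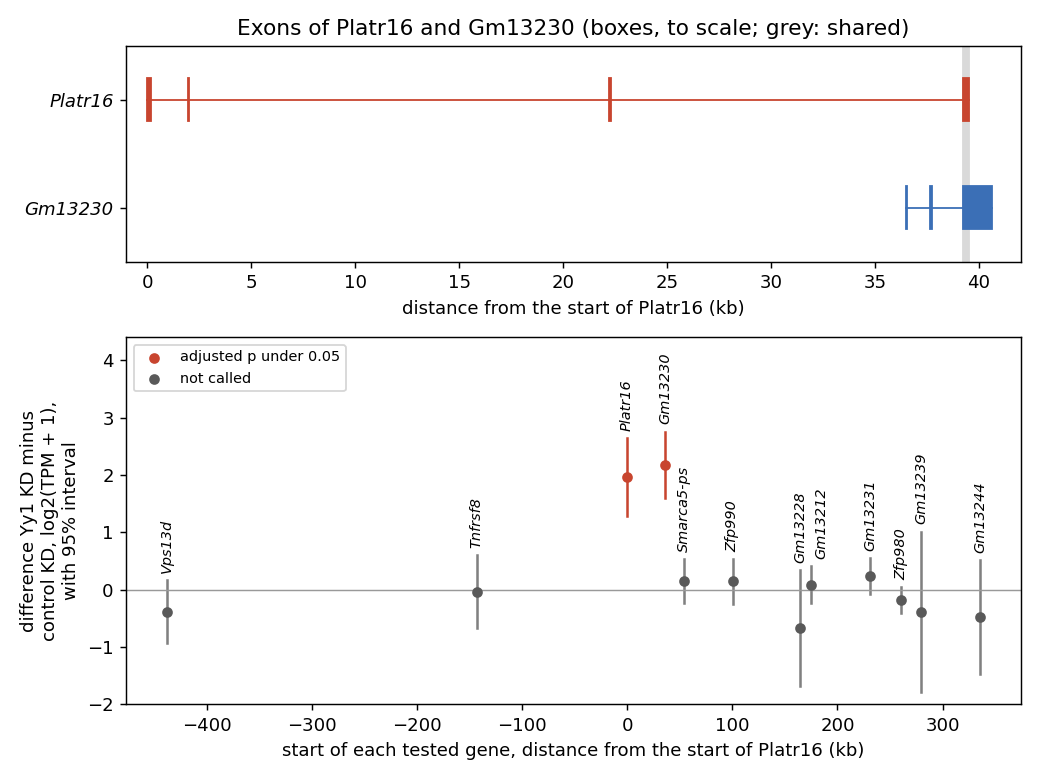
Top, exons of *Platr16* and *Gm13230* drawn to scale by distance from the start of *Platr16*, with the shared 290 nt in grey. Bottom, difference between *Yy1* KD and control KD on the log2(TPM + 1) scale with its 95% interval for each gene tested within 300 kb, placed by its start, in which *Platr16* (1.96) and *Gm13230* (2.18) are called and the 10 others lie between -0.67 and 0.24.

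*Platr10* (ENSMUSG00000099370.1, chr3:75647446-75655731, minus strand, a lincRNA that binds chromatin in embryonic stem cells) was the second member called. It was at 11.1, 8.69 and 8.37 TPM in the control KD and at 16.02, 20.2 and 20.9 TPM in the *Yy1* KD libraries. All *Yy1* KD values were higher than all control KD values. The means were 9.38 ± 1.48 TPM (SD, n = 3) and 19.1 ± 2.65 TPM (SD, n = 3), a ratio of 2.03, and the log2 fold change was 0.95 (SE 0.16, 95% interval 0.57 to 1.33, limma adjusted p = 0.0260). In GENCODE vM21, *Platr10* shares no exon with another gene, and 0 of its 1644 windows of 100 nt occurred in another gene's transcripts. Its 1745 nt received 100, 156.5 and 109 pairs in control KD and 216.5, 194 and 181 pairs in *Yy1* KD libraries. These came out in parts of a pair in 2 of the 6 libraries, and which gene shared those pairs was not determined. The call was close to the threshold: without a filter on low values the limma adjusted p was 0.0593, and it ranged from 0.0413 to 0.0932 when 1 library was left out, with a call only without *Yy1* KD replicate 1. Its neighbour *Serpini1*, a serine protease inhibitor gene 3.95 kb away, was below 1 TPM and was not tested.

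Among the members not called, 3 had log2 fold changes above 0.9. *Platr3* was at 0.469, 0 and 0 TPM in control KD and at 1.57, 1.32 and 2.45 TPM in *Yy1* KD libraries, which rested on 1, 0 and 0 pairs against 5, 3 and 5 pairs on 412 nt. Its groups did not overlap, and the log2 fold change was 1.27 (95% interval 0.56 to 1.98, limma adjusted p = 0.0570). With so few pairs its size depended on the scale, at 3.35 with a pseudocount of 0.1 (limma adjusted p = 0.110) and 3.06 with limma-voom (adjusted p = 0.0827). *Platr29*, 6.71 kb from the coactivator gene *Ncoa3*, was at 4.66, 2.57 and 5.65 TPM in control KD and at 5.45, 13.4 and 8.88 TPM in *Yy1* KD libraries. One *Yy1* KD value lay within the control KD range, and the log2 fold change was 0.92 (95% interval 0.08 to 1.77, limma adjusted p = 0.175). *Platr5* was at 0, 1.69 and 0.234 TPM in control KD and at 5.19, 2.86 and 0.706 TPM in *Yy1* KD libraries. The *Yy1* KD values were far apart and overlapped the control KD values, and the log2 fold change of 1.21 had a 95% interval of -0.16 to 2.57 (limma adjusted p = 0.261).

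*Platr31* (1466 nt), the most abundant member, differed little between the groups. It was at 68.1, 63.9 and 58.5 TPM in control KD and at 69.6, 65.8 and 64.9 TPM in *Yy1* KD libraries. The values overlapped, and the log2 fold change was 0.07 (95% interval -0.13 to 0.27, limma adjusted p = 0.653). It lies antisense to *Tigar*, a regulator of glycolysis, with 122 nt (8.32% of its exons) in common, and strand was ignored in the counting. Most of its span (chr6:127100297-127110467) lies within that of *Tigar* (chr6:127085116-127109557), beyond the shared exons. Whether unspliced *Tigar* RNA added to the pairs of *Platr31* was not tested. *Tigar* was at 148 ± 4.26 TPM (SD, n = 3) in control KD and 131 ± 5.82 TPM (SD, n = 3) in *Yy1* KD libraries, with a log2 fold change of -0.18 (limma adjusted p = 0.176).

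*Platr27* was the only tested member whose *Yy1* KD values all lay below its control KD values. It was at 17.8, 17.1 and 19.4 TPM in control KD and at 14.4, 12.7 and 14.4 TPM in *Yy1* KD libraries, a ratio of means of 0.765. The log2 fold change of -0.36 (95% interval -0.63 to -0.10) did not pass the test (limma adjusted p = 0.110).

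*Platr14*, whose loss in embryonic stem cells alters genes of differentiation, was at 16.9, 13.9 and 19.6 TPM in control KD and at 18.7, 13.6 and 14.3 TPM in *Yy1* KD libraries. The groups overlapped, with a log2 fold change of -0.11 (95% interval -0.52 to 0.31, limma adjusted p = 0.761). *Platr23*, which lies 0.251 kb from *Zfp281*, a zinc-finger gene of pluripotent cells, was at 11.7, 12.3 and 19.4 TPM in control KD and at 10.2, 12.3 and 12.04 TPM in *Yy1* KD libraries, so that control KD replicate 3 stood above the other 5 values. Its log2 fold change was -0.27 (95% interval -0.76 to 0.21, limma adjusted p = 0.472). *Platr25*, the only member annotated as protein-coding and the longest at 6180 nt, was at 6.92, 4.81 and 8.50 TPM in control KD and at 7.24, 7.47 and 6.42 TPM in *Yy1* KD libraries. The groups overlapped here too, with a log2 fold change of 0.08 (95% interval -0.42 to 0.58, limma adjusted p = 0.856).

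The other 6 members tested had means under 3 TPM in both groups, and the groups overlapped for each of them. *Platr4*, which acts in the commitment of embryonic stem cells to mesoderm, was at 1.89, 2.26 and 2.49 TPM in control KD and at 2.78, 0.784 and 3.24 TPM in *Yy1* KD libraries. *Platr20* had means of 2.62 and 2.63 TPM, *Platr26* of 2.35 and 1.98 TPM, *Platr8* of 1.67 and 1.04 TPM, *Platr21* of 1.55 and 1.88 TPM and *Platr32* of 0.504 and 0.974 TPM in control KD and *Yy1* KD libraries, respectively. Their log2 fold changes lay between -0.34 for *Platr8* and 0.34 for *Platr32*, and the limma adjusted p-values between 0.682 and 0.956. *Platr32* rested on 10 read pairs over all 6 libraries, and *Platr26* was at 0.603 to 4.18 TPM within control KD alone.

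For the 14 members not called, a missing call does not show an equal level. The 95% interval lay within -1 to 1 for 8 of them, it included a log2 fold change of 1 for 5, and it included -1 for 2. Fewer cells with a transcript and less of it per cell cannot be told apart in pooled embryos.

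The 12 members that were not tested had few read pairs. *Platr12* was at 0.848, 1.49 and 0.883 TPM in the control KD and at 0, 0.1996 and 0 TPM in the *Yy1* KD libraries, which were 4, 14 and 6 against 0, 1 and 0 read pairs. These groups did not overlap. *Platr6* had 0 pairs in all control KD libraries and 1, 2 and 4 pairs in *Yy1* KD libraries. In a fit without a filter on low values, *Platr12* had a log2 fold change of -0.95 (limma adjusted p = 0.0980) and *Platr6* one of 0.30 (limma adjusted p = 0.355). *Platr28*, *Platr13*, *Platr15*, *Platr9*, *Platr22*, *Platr1*, *Platr19* and *Platr30* had means between 0.0219 and 0.773 TPM in control KD and between 0.0294 and 1.33 TPM in *Yy1* KD libraries, with overlapping values. *Platr9* shares 305 nt with *Cga*, a hormone subunit gene, and *Platr30* shares 162 nt with *Gm26553*, both on the opposite strand. Of the 100-nt windows of *Platr30*, 90.1% occurred unchanged in transcripts of 3 other genes. Multi-mapped reads were left out of the counts, so the low values of *Platr30* are uncertain.

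In structure, 19 of the 28 genes were annotated as lincRNA and 6 as processed transcripts, and exons covered 375 to 6180 nt with a median of 1341.5 nt. In GENCODE vM21, exonic sequence was shared with another annotated gene by 4 members (*Platr9*, *Platr16*, *Platr30* and *Platr31*) and not by the other 24. Read pairs nevertheless came out in parts of a pair in at least 1 library for 10 members, such as *Platr23* in 5 of 6 libraries. Which genes shared the pairs of members outside these 4 was not determined. Around the 16 tested members, the nearest protein-coding genes on either side were 32 different genes. The 3 protein-coding genes whose span overlaps a tested member are not among them. Of the 32, 20 were tested and 1 was called (5.0%, beside 6.11% over all genes). This was *Jade1*, which encodes a subunit of a histone acetyltransferase complex and lies 62.5 kb from *Platr4*. *Jade1* had means of 32.6 and 13.6 TPM and a log2 fold change of -1.19 (limma adjusted p = 0.0126), while *Platr4* had one of -0.07 (limma adjusted p = 0.935).

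The YY1 consensus GCCATNTT, which reads AANATGGC on the other strand, was searched on both strands in the 300-base promoter windows of RefSeq (250 bases before to 50 bases after the start). Windows were given for 13 of the 28 members (15 windows), 8 of them tested members, and the consensus was in 0 of these 15, beside 6.05% of all 32851 windows. The core CCAT or ATGG was in 14 of the 15 windows (93.3%), beside 83.1% of all windows, and the *Platr10* window printed above holds it once, at position -246 relative to the start. In the first 100 nt of annotated transcripts, the consensus was in 1 of 52 Platr transcripts (1.92%), beside 3.51% of all 139316 transcripts. That transcript is *Platr12-202*, in which GCCATTTT begins at base 73 as printed above. A match is a feature of the sequence and not a binding site that was measured.

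The protein-coding genes of the pluripotent state were compared through a list of 28 genes, of which 27 were tested. Of these, 1 was called (3.70%, beside 6.11% over all genes), 11 had a positive and 16 a negative log2 fold change, and the median was -0.06. With limma-voom, 6 of the 27 were called (22.2%, beside 12.3% over all genes), so the list's share moved from below to above that of all genes. The gene called was *Zfp42*, a retroposed relative of *Yy1* and marker of the naive state, which fell from 218 to 23.5 TPM (log2 fold change -3.17, limma adjusted p = 1.18e-04). *Pou5f1* was at 706 and 678 TPM (log2 fold change -0.06, limma adjusted p = 0.671), *Nanog* at 322 and 276 TPM (-0.22, limma adjusted p = 0.537) and *Sox2* at 11.0 and 5.60 TPM (-0.86, limma adjusted p = 0.0942) in control KD and *Yy1* KD libraries, respectively.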

How the data were processed

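RNA-seq was performed on 3 control KD and 3 *Yy1* KD libraries, assigned to groups by their labels. The authors trimmed reads with Trim Galore (0.6.7), aligned them to mm10 with HISAT2 (2.2.1), removed ribosomal reads with bedtools, assigned pairs to GENCODE vM25 genes with featureCounts (2.0.1; pairs on several genes divided, strand ignored, multi-mapped reads left out) and deposited TPM per gene and library. The authors tested counts with edgeR. Because TPM is not suited to a count model, limma was used here.

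The Platr genes and all gene lists were chosen with earlier results of these data known. Genes with at least 1 TPM in at least 3 libraries were fitted with limma (3.58.1, R 4.3.3; variance trend) to log2(TPM + 1), two-sided, without a block, and called at a Benjamini-Hochberg adjusted p under 0.05 over all genes tested. Two-sided exact permutation tests of 3 against 3 libraries cannot go below 0.1, and *Platr16* and *Platr10* each had a p of 0.1. The test was checked on simulated data. Other steps used matplotlib 3.10.9, scipy 1.17.1, numpy 2.4.6 and pandas 2.3.3 under Python 3.11.15.

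Genes were matched to GENCODE vM21 by identifier with version (54312 of 55364, 98.1%), which gave coordinates, exon lengths and transcripts. Read pairs were recovered as TPM × exon length divided by the value of 1 pair. Of values under 20 pairs, 80.5% to 81.5% came out whole within 0.01. Promoter windows were those of RefSeq (GRCm38.p6), with none for *Platr16*.

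The genes named were all Platr genes, genes sharing exons with them or nearest to those tested, called members of the pluripotency list with *Pou5f1*, *Nanog* and *Sox2*, *Yy1*, other named noncoding RNAs and markers. Alternatives were quantile normalization, median-ratio scaling, a filter at a mean of 5 TPM, no filter, 0.1 as pseudocount, a replicate block, limma-voom on recovered pairs, genes without exonic overlap, leaving out each library, and other thresholds for reaching 1 TPM.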

Additional observations from a re-analysis of the deposited data

How the results depend on the processing

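Of 361 values recomputed under alternatives for single genes, 340 kept their direction and side of the threshold, 10 kept the direction but lost the call and 11 changed sign, all of them near 0 and not called. The number of genes called, 1061, was 347 without a filter on low values, 287 with the replicate block, 2086 with limma-voom on recovered read pairs, 611 among genes without exonic overlap, which are fewer genes, and 75 (without control KD replicate 3) to 418 (without *Yy1* KD replicate 1) when a library was left out. Both Platr calls held with quantile normalization, median-ratio scaling, limma-voom, 0.1 as pseudocount and a filter at a mean of 5 TPM. There was 1 call (*Platr16*) without a filter and with the replicate block, and 1 (*Platr10*) among genes without exonic overlap, where *Platr16* is not in the fit. Leaving out 1 library gave 0 to 1 Platr calls, with 0 without control KD replicate 1 or *Yy1* KD replicate 2. The log2 fold change of *Platr16* was 1.67 to 2.26 when a library was left out. With the replicate block, limma adjusted p was 0.0491 for *Platr16* and 0.0829 for *Platr10*. Libraries of the same number did not deviate together (correlations over genes -0.004, 0.032 and 0.075). With 3 libraries per group, these correlations cannot settle whether libraries of the same number shared a fertilization, and the labels do not say.

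The log2 fold changes that changed sign did so only when a library was left out. They ranged from -0.30 to 0.32 for *Platr4*, -0.24 to 0.0053 for *Platr14*, -0.32 to 0.19 for *Platr20*, -0.0699 to 0.29 for *Platr21*, -0.11 to 0.24 for *Platr25* and -0.64 to 0.22 for *Platr26*. Asking for 1 TPM in all 6 libraries left 10 Platr genes instead of 16. The pluripotency list had 3 calls at a mean TPM of at least 5 (of 25 tested, beside 11.4% of all genes), 2 with quantile normalization (7.41% beside 5.39%) and 6 with limma-voom (22.2% beside 12.3%). The YY1 core instead of the full consensus raised the members with a match in a promoter window from 0 to 12, as a shorter word does. Except where said, the cause was not tested. Depth limits the low members most: *Platr3*, *Platr5* and *Platr32* each rested on fewer than 50 read pairs over all libraries.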

Other observations

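According to the older symbols of RefSeq, 3 further genes were once named Platr and now carry other symbols, so that the search by symbol did not find them. *Lncenc1*, formerly Platr18, a noncoding RNA tied to glycolysis in naive embryonic stem cells, was at 18.8, 5.40 and 10.1 TPM in control KD and at 4.54, 3.97 and 9.17 TPM in *Yy1* KD libraries. The groups overlapped, with a log2 fold change of -0.78 (SE 0.45, limma adjusted p = 0.356). *Smim40*, formerly Platr17 and now annotated as protein-coding, was at 13.4, 14.2 and 8.47 TPM in control KD and at 4.16, 12.2 and 7.13 TPM in *Yy1* KD libraries. These groups overlapped as well, with a log2 fold change of -0.64 (SE 0.36, limma adjusted p = 0.341). *Kis2*, formerly Platr24, was listed at 0 in all 6 libraries.

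The other named noncoding RNAs that were tested were not called, beside 4.05% called among long noncoding RNA genes outside the Platr set. *Panct2*, another transcript named for pluripotency, had means of 5.45 ± 0.435 TPM (SD, n = 3) and 4.52 ± 0.422 TPM (SD, n = 3) with a log2 fold change of -0.23 (limma adjusted p = 0.445). *Gas5* had a log2 fold change of -0.12 (limma adjusted p = 0.764) and *Snhg3*, like *Gas5* a host of small nucleolar RNAs, one of 0.35 (limma adjusted p = 0.112). Values did not overlap between the groups for *Panct2*, *Malat1* and *Neat1*, with lower values in *Yy1* KD, and for *Snhg3*, with higher values, beside 30.1% of all genes tested. *Malat1* was at 450, 334 and 706 TPM in control KD and at 263, 240 and 331 TPM in *Yy1* KD libraries, with a log2 fold change of -0.78 (limma adjusted p = 0.139). *Neat1* was at 7.03, 3.18 and 6.44 TPM and at 2.28, 2.73 and 2.85 TPM, with one of -0.80 (limma adjusted p = 0.147). *Tunar*, which acts in the pluripotency network and is annotated as protein-coding in GENCODE vM21, was below 1 TPM in every library and was not tested.

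Transcripts of the oocyte, which persist in part after fertilization, were detected in both groups. All 8 genes of the list were at 1 TPM or more in at least 3 libraries, with summed levels of 62.5 to 78.8 TPM in control KD and 63.1 to 85.0 TPM in *Yy1* KD libraries, and limma called 0 of the 8, with 0 at an unadjusted p under 0.05 and 0 called by limma-voom, beside 6.11% called over all genes.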
